A study of Mus musculus with 38 samples.

Results

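The genes described here encode heterogeneous nuclear ribonucleoproteins (hnRNPs) and other RNA-binding regulators of alternative splicing. They were chosen by symbol: names beginning with Hnrnp, Rbm followed by a digit or x, Rbfox, Celf, Mbnl, Ptbp, Khdrbs, Esrp, Nova or Tra2, without pseudogenes named with -ps, and with a mean level of at least 10 in the table analysed. Of 49585 genes listed in each of 4 tables, 89 had such a symbol and 80 passed the level filter in at least 1 table. The filter kept 79 in whole skin of the knockout experiment, 77 in whole skin of the P95H experiment, 77 in sorted cells of the knockout experiment and 71 in sorted cells after a tumour protocol, and 71 genes passed in all 4. The genes tested in those tables numbered 19450, 18311, 17744 and 14914. Of the 80, Rbm3os is an antisense RNA gene and the other genes are annotated as protein-coding.

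Alternative splicing joins the exons of one primary transcript in different combinations, and the choice is set by proteins that bind the transcript near the splice sites. SR proteins such as SRSF2 mostly promote inclusion of the exons they bind, whereas hnRNPs are often found as repressors, and the balance between both sets decides many exons. Most hnRNPs are abundant in nearly all cells, while ESRP proteins are typical of epithelia, RBFOX, CELF, MBNL and RBM24 are best known from muscle, heart and brain, and NOVA from neurons. The deposited values are totals per gene, so they show how much RNA each regulator had and nothing about which exons were used.

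The study deleted Srsf2 or introduced its P95H mutation in mouse back skin. Krt14CreER is a tamoxifen-activated recombinase under the keratin 14 promoter, which is active in basal keratinocytes, and the skin received 4-hydroxy tamoxifen on alternate days, controls included. In the knockout experiment, Cre-positive mice were treated for 4, 10 or 12 days (3 mice each) and compared with 3 Cre-negative controls treated for 10 days (1 mouse) or 12 days. Their tdTomato reporter status varied within groups between wild type, heterozygous and homozygous. In the P95H experiment all mice were tdTomato wild type, with 5 Cre-negative controls and 2 Cre-positive SRSF2-P95H mice at 12 days, and 3 controls and 4 mutants at 28 days. Cells carrying the reporter were isolated by sorting after 10 days (3 controls, 3 SRSF2-KO) and at 20 weeks in mice that had received 3 tamoxifen injections and DMBA/TPA, a chemical carcinogen followed by a tumour promoter (3 controls, 3 SRSF2-P95H heterozygotes). The labels do not give the Cre or reporter genotype of the sorted controls. All libraries are labelled as biological replicates.

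Levels in whole skin are given in steps: all values of a given library are whole multiples of its step, and undetected genes there sit at 1 step. Levels in sorted cells are the deposited normalised counts. The tables were normalised separately, so levels are tested only within a table. The sorted libraries held 45.9 to 92.8 M reads (M for 1e6) in the knockout experiment and 11.0 to 17.2 M in the DMBA/TPA experiment, and the whole-skin libraries of the knockout and P95H experiments an estimated 24.9 to 36.8 M and 7.37 to 32.2 M. A pair of libraries stood apart. In sorted knockout replicate 2 a single gene, Gm26917, took 52.2% of the total against 9.13% to 10.4% in the other 5 sorted libraries, and 29616 genes were at 0 against 23227 to 24539. P95H replicate 1 at 28 days was the shallowest whole-skin library. Counts of members called by limma are given with and without each of these libraries. Values of single genes include both libraries unless stated. Sorted cells carried keratinocyte markers (summed level of 12 genes 1221787 to 2483421 at 10 days) and little skeletal muscle RNA (605 to 1760 over 12 genes). Muscle sums were 605 to 842 in sorted controls and 1744 to 1760 in sorted knockouts. Other markers were present as well. Fibroblast markers summed to 11149 to 20274. Nerve and Schwann cell markers summed to 5915 to 7742 in controls and 2935 to 4567 in knockouts. Leukocyte markers summed to 1390 to 1544 in controls and 1796 to 6739 in knockouts.

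Srsf2 itself was lower in the sorted knockout cells, at 3658, 3359 and 1900 normalised counts against 17560, 18190 and 20595 in controls (log2 difference -2.71, SE 0.27, limma adjusted p = 0.043). In whole skin, which holds many cells that do not express the recombinase, Srsf2 did not pass the test against controls at 4, 10 or 12 days. Control skin read 2885, 2879 and 2996 steps. Knockout skin read 2450, 2790 and 2671 steps after 4 days, 2996, 3084 and 3687 after 10 days, and 2303, 2559 and 2382 after 12 days. The 4-day and 12-day libraries lay below the controls, and the 10-day libraries lay at or above them. The log2 differences from controls were -0.15, 0.15 and -0.28 (limma adjusted p = 0.369, 0.286 and 0.164). Srsf2 was higher at 10 days than at 4 (log2 difference 0.30, limma adjusted p = 0.0323) and lower at 12 days than at 10 (-0.43, adjusted p = 0.0072). A lower Srsf2 level was thus not seen in the whole-skin libraries labelled knockout at 10 days, and each 10-day result below goes by that label.

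The hnRNP genes were among the most abundant members per kilobase of annotated exon. In sorted controls Hnrnpab, an hnRNP of the A/B type, stood at 6149 ± 732 normalised counts per kb, Hnrnpa1, a classical exon repressor, at 5942 ± 588 and Hnrnpk, which binds C-rich RNA, at 5266 ± 722 (mean ± SD, n = 3). These neighbours in the order lay within each other's spread. In whole-skin controls of the knockout experiment the order began with Hnrnpab at 1643 ± 256 steps per kb, followed by Hnrnpa1 at 1267 ± 165, Hnrnpl at 1267 ± 63.3 and the polypyrimidine tract binding gene Ptbp1 at 1206 ± 225 (SD, n = 3). The epithelial regulators Esrp2 and Esrp1 came next, at 1044 ± 142 and 1038 ± 153 steps per kb. In the P95H experiment's controls at 12 days the order differed, with Ptbp3 at 827 ± 84.0, Esrp1 at 767 ± 61.7 and Hnrnpab at 757 ± 78.2 steps per kb (SD, n = 5).

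A small group was present in whole skin and nearly absent from the sorted cells. Nova1, a neuronal KH-domain splicing factor, read 276, 274 and 227 steps in the knockout experiment's control skin and 1.51, 0 and 0.855 normalised counts in sorted controls. Rbm24, a splicing factor of striated muscle, read 857, 631 and 480 steps in the same skin and 1.51, 2.03 and 0 normalised counts in sorted controls. Nova2 read 0.756, 0.675 and 2.57 in sorted controls and Rbfox1, a muscle and neuron factor, 19.7, 13.5 and 5.99. The ubiquitous relative Rbfox2 was at 5836, 5959 and 5748 there. Celf2, which is found in muscle, heart, brain and T cells, was also low among sorted controls, at 209, 172 and 192, while its relative Celf1 stood at 9363, 10110 and 10772. In bulk skin, fewer cells of a type and less RNA per cell cannot be told apart, and this applies to each whole-skin result below.

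**Figure D1:**
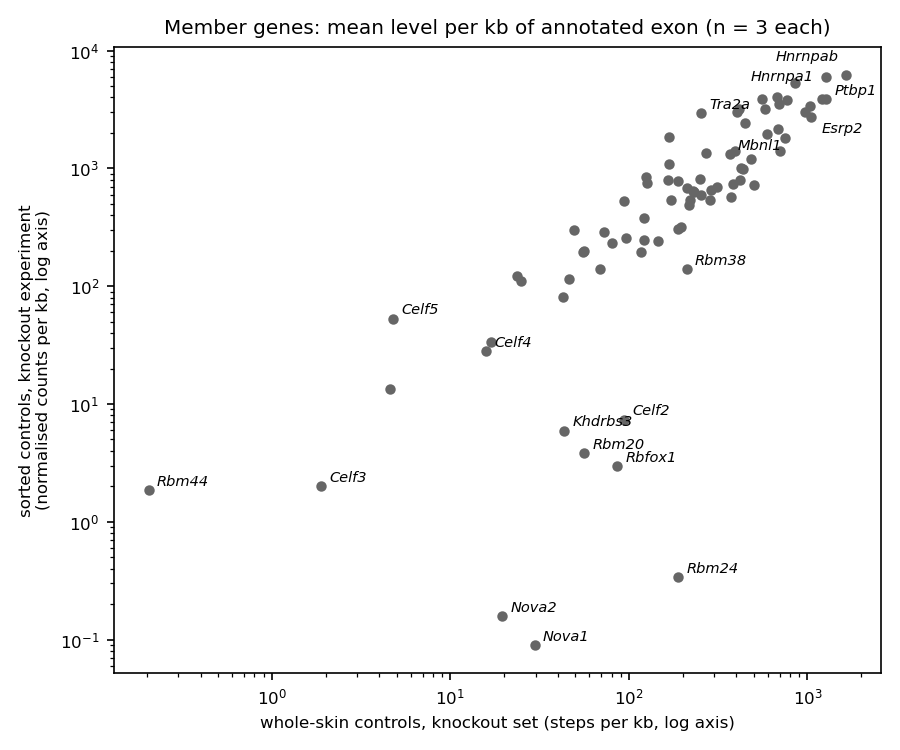
Mean level of each member gene per kb of annotated exon in the 3 whole-skin controls of the knockout experiment (x axis, steps per kb, log scale) and in the 3 sorted controls (y axis, normalised counts per kb, log scale). Most genes lie on one band, while Nova1, Nova2, Rbm24, Rbfox1, Rbm20, Khdrbs3 and Celf2 fall far below it; Celf5 lies low on the x axis.

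The clearest single response among the members was that of Celf5 in P95H skin. Celf5 encodes a CELF-family RNA-binding protein best known from brain, and its gene lies at chr10:81459227-81482709 on the minus strand (GRCm38, GENCODE M21). Controls at 12 days read 14, 14, 17, 15 and 19 steps, and the P95H libraries 94 and 104. At 28 days the controls read 19, 20 and 15 steps and the P95H libraries 90, 67, 56 and 56. Every mutant library was above every control library at both times. The log2 difference was 2.58 (SE 0.22, 5.98-fold, limma adjusted p = 2.77e-05) at 12 days and 1.83 (SE 0.20, 3.55-fold, limma adjusted p = 1.29e-04) at 28 days. The call was made whichever single library was left out, and without P95H replicate 1 the 28-day difference was 1.68. The level stayed low: 104 steps is far under the 2282 steps of Hnrnpab in the same library, and Celf5 in 12-day controls came to 2.37 ± 0.325 steps per kb (SD, n = 5). The difference between the 28-day and 12-day effects was -0.75 (SE 0.30) and did not pass (limma adjusted p = 0.544).

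The genes beside Celf5 did not show a change of that size. Ncln, one neighbour, differed by 0.35 on the log2 scale at 12 days (limma adjusted p = 0.171) and by 0.41 at 28 days (adjusted p = 0.057), and Nfic by less than its error at either time. Gm16105, an antisense gene whose exons overlap those of Celf5 over 543 bases, sat at 1 step in all 14 libraries of the P95H experiment. Whether the authors counted by strand is not stated in the sources used here, so reads of such overlapping pairs cannot be assigned with certainty. The promoter of Celf5 is shown because this gene had the largest difference. These 120 bases, which end 10 bases before the RefSeq start site (GRCm38.p6), hold overlapping copies of the GC box, read here on the opposite strand and printed in capitals.
Celf5, chr10:81482710-81482829, minus strand: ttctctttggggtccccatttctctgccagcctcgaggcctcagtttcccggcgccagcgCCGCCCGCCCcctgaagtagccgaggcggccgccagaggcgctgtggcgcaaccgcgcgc

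Celf5 read otherwise in the other tables. In knockout skin it stood at 34, 33 and 29 steps in controls, 38, 26 and 22 at 4 days, 60, 64 and 65 at 10 days and 23, 44 and 37 at 12 days. Only the 10-day libraries were all above the controls (log2 difference 0.96, SE 0.26, limma adjusted p = 0.0243). In sorted cells of the knockout experiment controls read 345, 336 and 383 normalised counts and knockouts 143, 445 and 427, which overlap. In sorted cells after DMBA/TPA the gene was under the level filter, at 2.59 to 10.6 normalised counts in controls and 6.16 to 11.2 in heterozygotes, so the rise seen in whole P95H skin was not tested there.

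**Figure D2:**
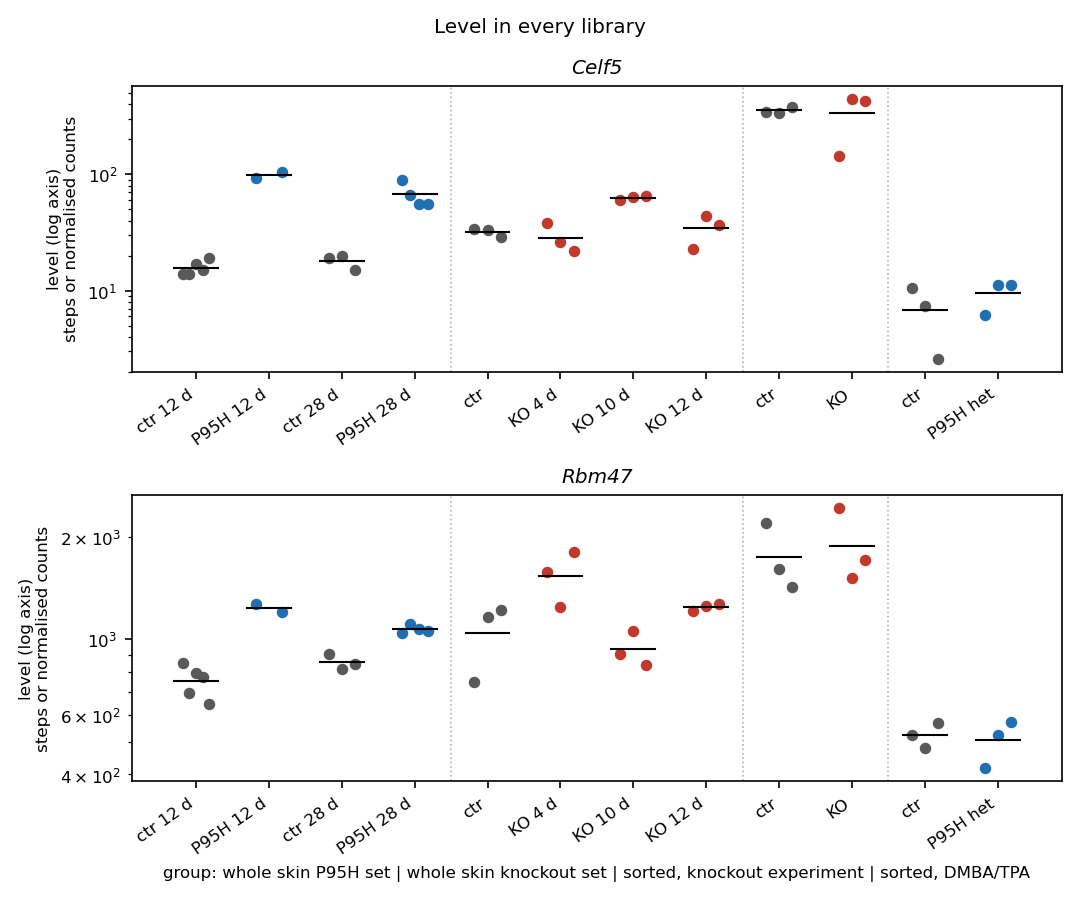
Level of Celf5 (top) and Rbm47 (bottom) in every library, with a horizontal line at each group mean; both vertical axes are logarithmic, in steps for whole skin and normalised counts for sorted cells, and dotted lines separate the 4 tables. P95H whole-skin libraries of Celf5 sit at 56 to 104 steps and their controls at 14 to 20.

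At 12 days of P95H expression 3 of 77 members passed the test, against 6.93% of all genes tested (3.96% higher, 2.97% lower). Beside Celf5, Rbm47 was higher and Hnrnpr lower, and with the deposited values Celf5 alone was called. Rbm47, an RNA-binding protein that also serves as a cofactor of C-to-U RNA editing, read 852, 696, 796, 774 and 644 steps in controls and 1268 and 1201 in P95H skin, without overlap (log2 difference 0.72, SE 0.10, 1.65-fold, limma adjusted p = 6.67e-04). Hnrnpr read 2688, 2380, 2692, 2531 and 2644 steps in controls and 2005 and 1897 in P95H skin, also without overlap (log2 difference -0.41, SE 0.10, limma adjusted p = 0.023). Celf5 and Rbm47 were called whichever library was left out, and Hnrnpr was not called with 1 P95H library. The count was 5 without control replicate 5 (6.49%, against 7.85% of all genes). With 2 mutant mice at this time, the precision is limited.

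Below the threshold at 12 days were several RNA-binding factors with every P95H library under every control. Among them were Rbm5, a regulator of apoptosis-gene splicing (log2 difference -0.20, limma adjusted p = 0.0721), Rbm24 (-0.47, adjusted p = 0.0744) and Hnrnph1, which binds G-rich RNA (-0.24, adjusted p = 0.087). In all, 20 of 77 members had both mutant libraries below all 5 controls (26%, against 14% of all genes tested) and 5 had both above (6.49%, against 13.7%). Under an unadjusted p of 0.05 were 18 members (23.4%), close to the 22.3% of all genes.

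At 28 days 9 of 77 members passed, against 12.2% of all genes (6.7% higher, 5.46% lower), so the share of members called was close to the background. Celf5, Rbm47, Hnrnpab and Hnrnpa0 were higher. Rbm47 read 904, 817 and 845 steps in controls and 1039, 1106, 1073 and 1055 in P95H skin (log2 difference 0.32, SE 0.09, limma adjusted p = 0.0296). Hnrnpab read 1856, 2181 and 1949 against 2461, 2694, 2431 and 2394 (0.32, SE 0.09, adjusted p = 0.0275 in limma). Hnrnpa0, a small hnRNP that binds AU-rich RNA, read 1339, 1372 and 1232 against 1455, 1854, 1615 and 1738 (0.34, SE 0.10, limma adjusted p = 0.0385). In each of these genes all 4 mutant libraries were above all 3 controls. Fewer were called under other scalings: 2 members were higher with equal totals, against 5.69% of all genes. With the deposited values Celf5 alone was called, against 3.45% of all genes.

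The 5 lower members at 28 days were Nova1, Rbm24, Ptbp2, Celf2 and Mbnl1. Nova1 read 417, 480 and 563 steps in controls and 295, 294, 313 and 371 in P95H skin (log2 difference -0.61, SE 0.16, limma adjusted p = 0.027). Ptbp2, the neuronal PTB protein, read 1418, 1489 and 1588 against 795, 1096, 1332 and 1202 (-0.46, SE 0.13, adjusted p = 0.0327 in limma). The lowest Ptbp2 value belonged to the shallowest library, replicate 1. Mbnl1, a muscleblind protein that drives adult splicing patterns in muscle, read 9707, 9888 and 10281 against 7914, 7868, 8729 and 8691 (-0.26, SE 0.08, adjusted p = 0.0357 in limma). Rbm24 differed by -0.48 (limma adjusted p = 0.0358) and Celf2 by -0.36 (limma adjusted p = 0.0495).

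These 5 lower calls depended on the scaling: with the deposited values, which put the median of all genes at 0.59, the same differences were positive and lay between 0.0058 (Nova1) and 0.35 (Mbnl1), under that median. Markers of skeletal muscle summed to 740944 to 867498 steps in controls and 561020 to 731995 in mutants at 28 days, with 1 of 12 markers called lower. At 12 days the muscle markers summed to 763602 to 917832 in controls and 598337 to 619453 in mutants, with 2 of 12 called lower. Keratinocyte markers summed to 191591 to 224470 in 28-day controls and 253280 to 314500 in mutants, with 4 of 12 higher and 1 lower. At 12 days they summed to 137764 to 181649 in controls and 196569 to 278210 in mutants, with 2 of 12 higher and 1 lower. Nerve and Schwann cell markers summed to 4261 to 5158 in 28-day controls and 3323 to 4081 in mutants, with 1 of 7 measured called lower. Their 12-day sums were 3274 to 4236 in controls and 3306 to 3620 in mutants, with 0 called. The part of these shifts in the members' differences was not tested. Only Celf5 was called at 28 days whichever library was left out. The count was 11 (5 higher, 6 lower) without P95H replicate 1, 11 without P95H replicate 3 and 5 without P95H replicate 4. It was 3 without control replicate 1, 2 without control replicate 2, 1 without control replicate 4 and 1 without P95H replicate 2. In the same order the share of all genes called was 12.3%, 13.3%, 10%, 6.17%, 7.04%, 3.82% and 6.73%.

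No member differed between the 28-day and 12-day effects of P95H (0 of 77 called, against 0.0109% of all genes, limma). Under an unadjusted p of 0.05 in limma were 5 members (6.49%, against 8.21% of all genes). The comparisons at the 2 times use different mice throughout.

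In knockout skin at 4 days 4 of 79 members passed the test, against 11.3% of all genes (7.21% higher, 4.12% lower), a share under the background. None of the Cre-negative mice shared that short treatment. Every 4-day difference from controls therefore mixes length of treatment with genotype, and the share of each was not tested. Esrp1 and Esrp2, the epithelial splicing regulatory proteins that hold up epithelial exon patterns, were both lower. Esrp1 read 7653, 6067 and 5904 steps in controls and 4582, 5042 and 3751 at 4 days (log2 difference -0.55, SE 0.14, limma adjusted p = 0.0269). Esrp2 read 5226, 4054 and 4310 in controls and 3085, 3179 and 2426 at 4 days (-0.65, SE 0.16, limma adjusted p = 0.0241). The groups of both genes did not overlap. Rbm24 was lower as well (421, 343 and 266 steps against 857, 631 and 480; -0.92, limma adjusted p = 0.0444), and Nova1 higher (454, 381 and 452 against 276, 274 and 227; 0.73, limma adjusted p = 0.0491).

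Each of these 4 calls was lost when some single library was left out. None of the members passed without control replicate 1 or without 4-day replicate 3, against 2.75% and 1.52% of all genes. Without 4-day replicate 1, 1 member passed, against 6.1% of all genes. All 4 kept their sign with equal totals and with the deposited values, and none was called with the latter. Of keratinocyte markers 4 of 12 were lower at 4 days, with sums of 211292 to 286095 steps against 266515 to 380108 in controls. Of fibroblast markers 9 of 10 were higher, summing to 1577040 to 3265469 steps against 376573 to 854220. Leukocyte markers summed to 74608 to 144000 against 40639 to 62161, with 6 of 12 higher. Skeletal muscle markers summed to 771490 to 1446417 against 1117965 to 2451226, with 1 of 12 lower. Their part in the members' differences was not tested.

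At 10 days 24 of 79 members passed, 16 higher and 8 lower, against 25.3% of all genes (13.3% higher, 11.9% lower), so the share of members was little above the background. Celf3 passed the level filter only through its high 10-day values, and without it 23 members passed, 15 of them higher. The members' median difference was 0.13 on the log2 scale against -0.02 for all genes tested. The split turned on the scaling: with equal totals, which moved the median of all genes to -0.34, 1 member was higher and 21 lower, against 6.23% and 35% of all genes. With the deposited values, which moved it to 0.25, 21 were higher and 1 lower, against 17.4% and 2.83% of all genes. Of the 24 called members all but Rbm22 kept their sign under both, and Rbm22 stood at -0.01 with equal totals.

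Among hnRNPs 6 of 20 were higher at 10 days and none was lower, against 13.3% and 11.9% of all genes; those 6 stayed positive, though smaller and uncalled, with equal totals. Hnrnpab read 6608, 7016 and 6283 steps at 10 days against 4402, 3956 and 5353 in controls (log2 difference 0.55, SE 0.14, 1.46-fold, limma adjusted p = 0.019). Hnrnpa1 read 5646, 6040 and 5192 against 4159, 3413 and 4412 (0.50, SE 0.14, limma adjusted p = 0.0275). Hnrnpf, a G-run binder, differed by 0.49 (limma adjusted p = 0.0163), Hnrnpc, which coats uridine-rich introns, by 0.43 (adjusted p = 0.0363), Hnrnpk by 0.39 (adjusted p = 0.0448) and Hnrnpa0 by 0.34 (adjusted p = 0.0343). The other 14 hnRNP genes did not pass; Hnrnpu, Hnrnpa2b1 and Hnrnpd were among them, with Hnrnpd at 1193, 1248 and 1211 against 1447, 1128 and 1146.

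Promoters of 5 of the 6 hnRNP genes that were higher at 10 days are shown, because these genes were called in the same direction. Those of Nova2 and Rbm24, which were lower, are printed beside them. Hnrnpk is not printed, since its entry starts 1226 bases from the annotated start of the gene. Each is 120 bases before the RefSeq start site (GRCm38.p6), with the 7 bases next to the start left out for Hnrnpc and 16 for Hnrnpf. Capitals mark the GC box GGGCGG, the CCAAT box CCAAT and, in Hnrnpf alone, the ETS motif CCGGAA, found on either strand. The Hnrnpf window holds neither of the first 2 motifs.
Hnrnpab, chr11:51606882-51607001, minus strand: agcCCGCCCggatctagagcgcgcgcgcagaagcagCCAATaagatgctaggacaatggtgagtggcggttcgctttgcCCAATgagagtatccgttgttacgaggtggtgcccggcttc
Hnrnpa1, chr15:103240277-103240396, plus strand: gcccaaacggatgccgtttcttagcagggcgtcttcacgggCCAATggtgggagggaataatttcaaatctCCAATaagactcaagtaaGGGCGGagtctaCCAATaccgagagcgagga
Hnrnpa0, chr13:58128557-58128676, minus strand: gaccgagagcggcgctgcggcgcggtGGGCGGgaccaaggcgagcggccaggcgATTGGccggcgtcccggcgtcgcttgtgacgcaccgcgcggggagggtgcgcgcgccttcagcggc
Hnrnpc, chr14:52104029-52104148, minus strand: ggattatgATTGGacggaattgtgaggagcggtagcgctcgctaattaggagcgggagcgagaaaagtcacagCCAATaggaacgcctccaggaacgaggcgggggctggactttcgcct
Hnrnpf, chr6:117900204-117900323, plus strand: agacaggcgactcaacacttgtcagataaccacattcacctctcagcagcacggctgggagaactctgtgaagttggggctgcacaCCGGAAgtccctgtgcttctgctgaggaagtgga
Nova2, chr7:18925768-18925887, plus strand: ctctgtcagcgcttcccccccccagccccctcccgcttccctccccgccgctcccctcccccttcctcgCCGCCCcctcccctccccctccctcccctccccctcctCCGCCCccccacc
Rbm24, chr13:46418180-46418299, plus strand: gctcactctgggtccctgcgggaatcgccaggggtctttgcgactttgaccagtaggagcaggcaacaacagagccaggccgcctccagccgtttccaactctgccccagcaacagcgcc
Of the 80 members 63 had a RefSeq promoter entry. Within 250 bases upstream, CCAAT on either strand occurred in 31 of the 63 (49.2%) and in 33.8% of all 32851 promoters, and GGGCGG in 30 of the 63 (47.6%) and in 32.7% of all promoters. Of the members higher at 10 days, 12 had an entry, and 7 of these held CCAAT and 7 GGGCGG. The 7 with CCAAT include Hnrnpk, with its distant entry, and Celf3, which passed the level filter only through its 10-day values. Of the lower members, 6 had an entry, and 0 held CCAAT and 1 GGGCGG. Most of these entries lie away from the annotated start: Celf2 by 113365 bases, Rbm38 by 1404, Rbfox1 by 562, Nova1 by 162 and Rbm24 by 134. The higher and lower counts are therefore not compared. The motif CCGGAA occurred in 14 of the 63 (22.2%) and in 12% of all promoters. For each motif, the members had passed a level filter and the set of all promoters had not. Only 41 of the 63 entries lie within 50 bases of the annotated start. On the other strand the GC box reads CCGCCC, the CCAAT box reads ATTGG and the ETS motif reads TTCCGG, and no 2 different motifs overlap in the printed windows. A match is a description of the letters and was not linked to binding of any factor.

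Other higher members at 10 days came from several families. Esrp2 read 6094, 6727 and 6000 steps against 5226, 4054 and 4310 in controls (log2 difference 0.48, SE 0.16, limma adjusted p = 0.0443), while Esrp1, at 8547, 7165 and 8384 against 7653, 6067 and 5904, overlapped the controls and did not pass (adjusted p = 0.127). Rbm15b, a cofactor of RNA adenosine methylation, was the tightest, at 3844, 3874 and 3900 against 2560, 2689 and 3215 (0.46, SE 0.11, limma adjusted p = 0.0146). Rbm3, which is induced by cold, differed by 0.55 (limma adjusted p = 0.0285), Tra2b, an SR-like activator of exon inclusion, by 0.48 (adjusted p = 0.0387), Rbm10 by 0.40 (adjusted p = 0.0181) and Rbmxl1 by 0.63 (adjusted p = 0.0166). Ptbp1, at 7474, 9158 and 7799 against 4880, 5347 and 6916, lay above the controls and missed the threshold (limma adjusted p = 0.056). Celf3, a neuronal CELF gene, read 27, 28 and 24 steps against 10, 10 and 11; since it passed the level filter through these high values (mean 8.89 over the other groups), its difference is given as a description.

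The lower members at 10 days were Rbm24, Rbfox1, Rbm38, Nova2, Nova1, Celf2, Khdrbs3 and Rbfox2. Rbm24 read 279, 188 and 241 steps against 857, 631 and 480 (log2 difference -1.45, SE 0.26, limma adjusted p = 0.00624). Nova1 read 166, 106 and 149 against 276, 274 and 227 (-0.90, SE 0.21, limma adjusted p = 0.0142). Celf2 read 1520, 1414 and 1403 against 2037, 2864 and 2390 (-0.74, SE 0.16, limma adjusted p = 0.0104). These groups did not overlap. Rbm38, a p53 target that also binds muscle transcripts, read 243, 248 and 262 against 845, 562 and 408 (-1.20, limma adjusted p = 0.0129). Rbfox1 read 114, 101 and 183 against 576, 390 and 169, with control replicate 3 inside the knockout range (-1.38, limma adjusted p = 0.0464). Mbnl1, at 5372, 5315 and 6064 against 7312, 6803 and 6480, did not overlap but did not pass (adjusted p = 0.0933), and both Mbnl2 and Mbnl3 did not pass either.

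Cell-type markers differed widely at 10 days. All 15 measured markers of hair shaft and inner root sheath were higher, summing to 4653030 to 6159754 steps against 3880 to 241035 in controls, and 7 of 7 melanocyte and 11 of 12 proliferation markers were higher. Skeletal muscle markers were lower in 10 of 12, with sums of 569583 to 735655 against 1117965 to 2451226. Endothelial markers were lower in 7 of 8 and nerve and Schwann cell markers in 4 of 7 measured. The part of these markers in the members' differences was not tested. For Nova1, Nova2 and Rbm24 the sorted controls were at or near 0 normalised counts, as given above; sorted knockouts reached 4.26 for Nova1 and, in replicate 2, 27.4 for Nova2.

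Single libraries weighed heavily on the 10-day count and on the share of all genes called. The count was 4 without control replicate 2 (5.06%, against 7.32% of all genes) and 6 without 10-day replicate 2 (7.59%, against 11.9%). It was 13 without control replicate 1 (16.5%, against 16.2%) and 13 without 10-day replicate 3 (16.5%, against 15.7%). It was 15 without 10-day replicate 1 (19%, against 16.5%) and 21 without control replicate 3 (26.6%, against 25%). Celf2, Rbm24 and Rbm38 were called in every one of these 6 fits, as was Celf3, which passed the level filter through its 10-day values.

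At 12 days of knockout 0 of 79 members passed in limma, against 1.28% of all genes (0.823% higher, 0.458% lower). Under an unadjusted p of 0.05 in limma were 10 members (12.7%, against 19.7% of all genes). Nova1 came nearest, at 645, 446 and 382 steps against 276, 274 and 227 in controls (log2 difference 0.89, SE 0.21, limma adjusted p = 0.0646). Esrp1 read 4915, 5079 and 5435 and Esrp2 2716, 3895 and 3513, below every control and not past the threshold (-0.34, adjusted p = 0.204, and -0.43, adjusted p = 0.162, in limma).

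The 3 knockout times were also compared directly, with libraries shared between the comparisons. No control was treated for 4 days, so length of treatment and effect of the knockout cannot be told apart in these comparisons. From 4 to 10 days 22 of 79 members differed, against 40.3% of all genes (18.9% higher, 21.4% lower), 13 higher and 9 lower, and 17 of the 22 were called whichever library was left out. From 10 to 12 days 26 differed, against 37.6% of all genes (19.2% higher, 18.3% lower), 10 higher and 16 lower, and 14 of the 26 were called whichever library was left out. Without 10-day replicate 2, and likewise without 10-day replicate 3, the count of members that differed was 16 (20.3%, against 29.8% and 28.5% of all genes). With all libraries the shares of members, 27.8% from 4 to 10 days and 32.9% from 10 to 12 days, were under the background. These counts, and those called whichever library was left out, include Celf3, which passed the level filter only through its 10-day values. Without Celf3, 21 members differed from 4 to 10 days (12 higher, 9 lower) and 25 from 10 to 12 days (10 higher, 15 lower). The splits moved with the scaling: with equal totals they were 6 higher and 15 lower from 4 to 10 days and 30 higher and 3 lower from 10 to 12 days, as the median of all genes moved to -0.26 and 0.35. Of all genes, 11.6% were then higher and 34.5% lower from 4 to 10 days, and 39.6% higher and 9.47% lower from 10 to 12 days. With the deposited values the splits of members were 34 higher and 2 lower, and 5 higher and 13 lower, with medians of all genes at 0.34 and -0.15. The shares of all genes were 28.9% higher and 7.6% lower, and 7.39% higher and 18.6% lower.

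Several members differed in one direction from 4 to 10 days and in the other from 10 to 12 days. Esrp2 was 2.18-fold higher at 10 days than at 4 (log2 difference 1.12, SE 0.16, limma adjusted p = 3.04e-04) and 1.88-fold lower at 12 days than at 10 (-0.91, SE 0.16, adjusted p = 0.0016 in limma). Esrp1 was 1.81-fold higher at 10 than at 4 days and 1.56-fold lower at 12 than at 10 (limma adjusted p = 6.69e-04 and 0.00477). Nova1 went the other way, 3.09-fold lower at 10 than at 4 days (-1.63, SE 0.21, limma adjusted p = 2.29e-04) and 3.46-fold higher at 12 than at 10 (1.79, SE 0.21, limma adjusted p = 3.42e-04). Celf2 was 2.41-fold lower and then 1.92-fold higher (limma adjusted p = 1.76e-04 and 0.00143). Mbnl1 was 1.40-fold lower and then 1.46-fold higher (limma adjusted p = 0.00847 and 0.00571). Mbnl3, a muscleblind protein of less differentiated cells, was 1.92-fold higher and then 1.44-fold lower (limma adjusted p = 0.00139 and 0.033). Rbm47 was 1.63-fold lower at 10 than at 4 days (limma adjusted p = 0.0112). All the differences named here had the same sign with equal totals and with the deposited values.

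Cell-type markers moved in the same comparisons. From 4 to 10 days all 15 measured hair shaft and 7 of 7 melanocyte markers were higher, while 9 of 10 fibroblast, 7 of 8 endothelial and 6 of 12 leukocyte markers were lower. Of keratinocyte markers 7 of 12 were higher and 2 lower, and 1 of 12 skeletal muscle markers was lower. From 10 to 12 days all 15 hair shaft, 7 of 7 melanocyte and 9 of 12 proliferation markers were lower, while 10 of 12 skeletal muscle, 8 of 10 fibroblast, 7 of 8 endothelial and 6 of 12 leukocyte markers were higher. Their part in the members' differences was not tested.

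**Figure D3:**
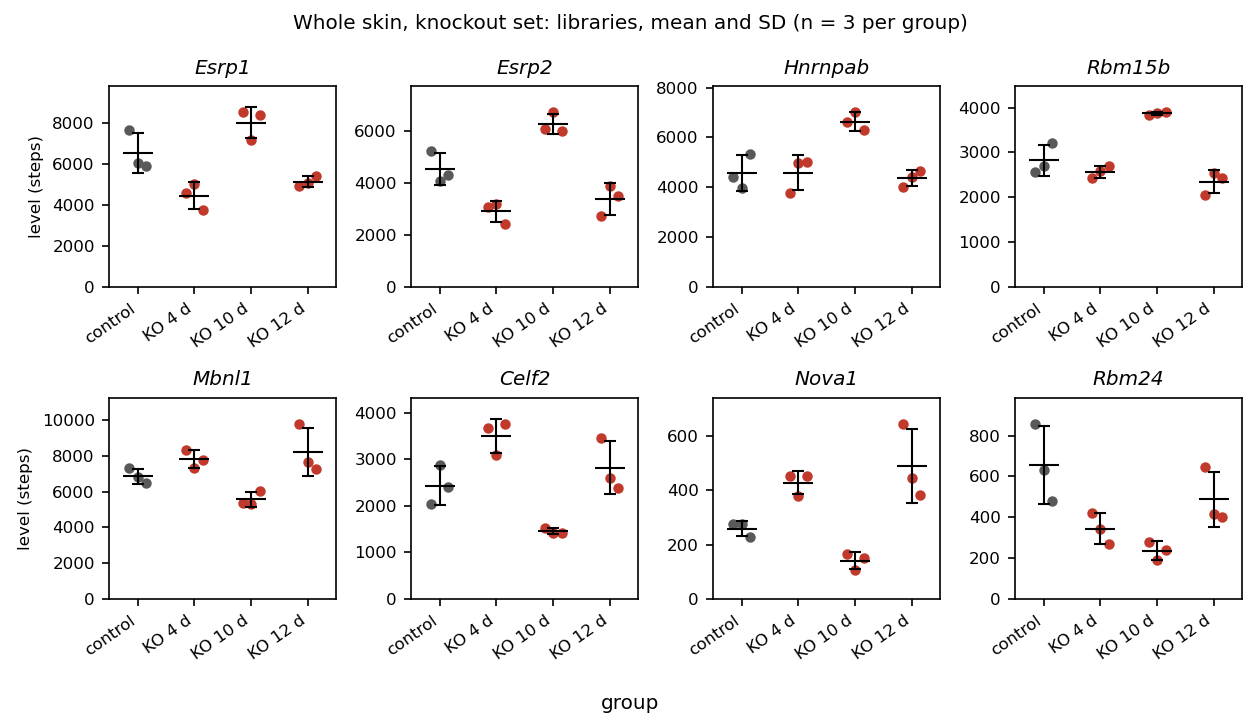
Levels in steps (vertical axes from 0) of 8 member genes in whole skin of the knockout experiment, with a point for each library and bars for the mean and SD (n = 3 per group). At 10 days Esrp2, Hnrnpab and Rbm15b lie above the controls and Celf2, Nova1 and Rbm24 below; the hnRNP and Esrp2 differences shrink, without changing sign, when libraries are set to equal totals.

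In sorted knockout cells 0 of 77 members passed in limma, against 0.0394% of all genes (0.0282% higher, 0.0113% lower). In limma 10 members were under an unadjusted p of 0.05, a count not read as a result about the members. The edgeR test called 0 as well, with 10 under that value, while DESeq2 called 5 (1 higher, 4 lower; 6.49%, against 7.08% of all genes). Tra2a and Tra2b encode SR-like proteins that activate exons. Tra2a read 19843, 21189 and 20662 normalised counts in controls and 7436, 15453 and 9821 in knockouts (log2 difference -0.98, SE 0.28, limma adjusted p = 0.18). Tra2b read 15997, 16840 and 18014 against 10001, 8917 and 11128 (-0.76, SE 0.18, limma adjusted p = 0.147; DESeq2 adjusted p = 0.00555). Neither gene's groups overlapped.

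The other members under an unadjusted p of 0.05 were also mostly below controls, a direction not read as a result about the members. Among them were Hnrnph1, at 19821, 19239 and 17150 in controls against 13553, 7595 and 11923 in knockouts, and Rbm39, a U2AF-related factor, at 25438, 25823 and 29465 against 15107, 16251 and 21555. Rbm5 read 8614, 8829 and 7432 against 5566, 4664 and 5066. Rbm4b read 1217, 1325 and 1138 against 563, 633 and 705 (-0.95, SE 0.21, limma adjusted p = 0.14; DESeq2 adjusted p = 0.00137), and its paralog Rbm4 964, 928 and 1028 against 676, 640 and 590. Exons of Rbm4 overlap those of the gene Gm21992, so its reads are uncertain. Khdrbs3, a STAR-family factor, was the one above, at 163, 68.5 and 47.0 against 28.7, 26.3 and 10.3 (1.97, SE 0.63, limma adjusted p = 0.21; DESeq2 adjusted p = 0.0242).

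Without knockout replicate 2 limma called 2 members, Tra2a (log2 difference -1.27, adjusted p = 0.0262) and Rbm4b (-0.96, adjusted p = 0.0485), both lower, and edgeR called Tra2a (adjusted p = 0.0329). These counts are close to or under the background, with 2.29% of all genes called by limma and 2.41% by edgeR in the same fits. That replicate had the highest Tra2a of the knockouts and lay far from the other knockouts in several members: Hnrnpa0 read 46819 there against 14627 and 13300, Mbnl2 4229 against 12650 and 14333, and Mbnl1 9081 against 23239 and 24755. With all libraries, 18 of 77 members had all 3 knockouts below all 3 controls (23.4%, against 15.8% of all genes tested) and 7 had them above (9.09%, against 12.8%). With equal totals, which moved the median of all genes to -0.38, 0 members were called and 2 were under an unadjusted p of 0.05 in limma.

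**Figure D4:**
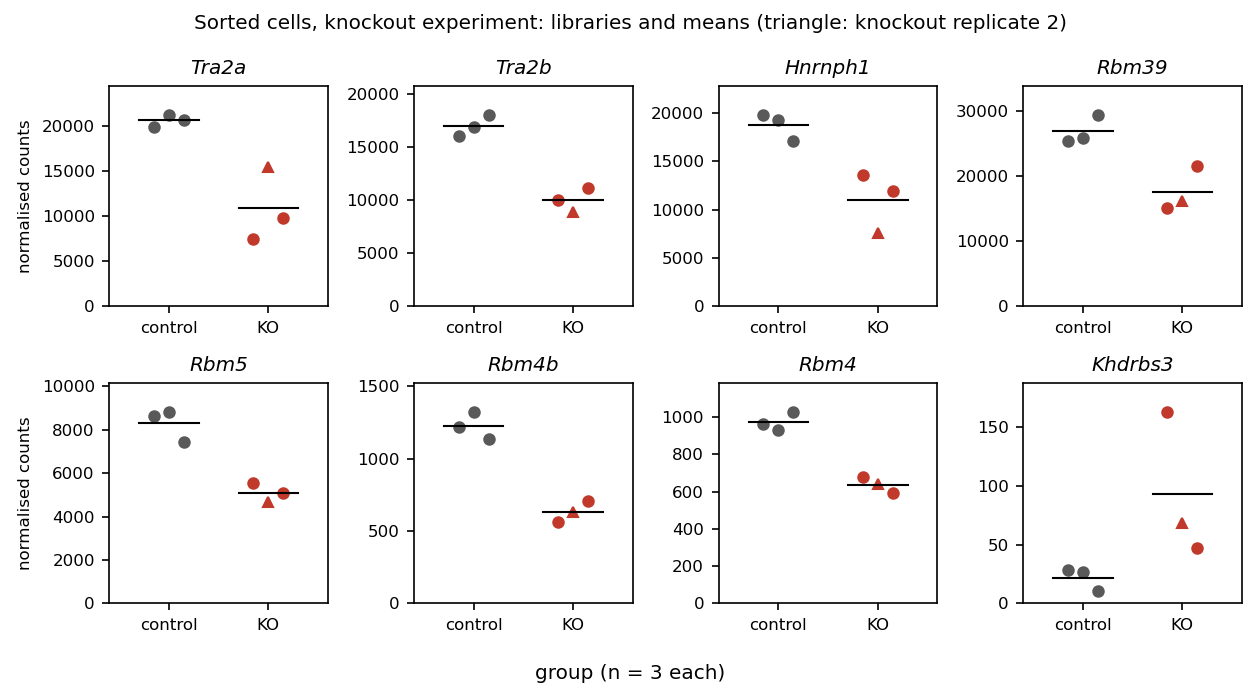
Normalised counts (vertical axes from 0) of 8 member genes in sorted cells at 10 days, with a point for each library (n = 3 per group), a line at the mean and a triangle for knockout replicate 2, the library in which Gm26917 takes 52.2% of the total. All knockouts lie below all controls in 7 genes and above them in Khdrbs3; none passed in limma with all libraries.

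In sorted cells after DMBA/TPA 0 of 71 members passed in limma, against 0% of all genes, and 4 were under an unadjusted p of 0.05. The edgeR and DESeq2 tests also called 0 (2 and 3 under an unadjusted p of 0.05). These unadjusted counts are not read as a result about the members. Hnrnpdl read 4439, 4103 and 4653 in controls and 3443, 3678 and 3715 in P95H heterozygotes (log2 difference -0.28, SE 0.09, limma adjusted p = 0.194). Tra2a, at 4694, 4479 and 5679 against 3995, 3579 and 4631, overlapped (-0.28, SE 0.13, adjusted p = 0.309). Rbm47 read 524, 479 and 566 against 417, 524 and 572. Nova1, Nova2, Rbm20, Rbm24 and Rbfox1 were under the level filter there.

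The wider splicing machinery is given for comparison, beside 13.3% of all genes higher and 11.9% lower at 10 days of knockout. At 10 days of knockout 5 of 11 SR protein genes were higher and none lower, led by Srsf12 (2.55-fold, limma adjusted p = 0.0202) and Srsf7 (1.45-fold, adjusted p = 0.022). Of 35 core spliceosome genes 17 were higher and none lower, led by Snrpd2, an Sm core protein (1.82-fold, limma adjusted p = 0.00713), and Snrnp40 (1.63-fold, adjusted p = 0.00981). Of 27 other splicing regulators 3 were higher, Pcbp1, Sfpq and Ewsr1, and 2 lower, Qk and Srrm4. These splits also moved with the scaling: with equal totals 1 SR protein gene was higher and 2 lower, 1 core spliceosome gene was higher, and 9 other regulators were lower. Of all genes tested, 6.23% were higher and 35% lower with equal totals. At 4 and 12 days of knockout none of the 3 lists had a gene past the threshold in limma. In P95H skin 4 of 35 core spliceosome genes were higher at 28 days, against 6.7% of all genes, led by Sf3b5 (1.72-fold, limma adjusted p = 0.0253). With equal totals 3 were higher, against 5.69% of all genes, and with the deposited values 1, against 3.37%. In the same skin, none of the 3 lists had a called gene at 12 days. In sorted knockout cells the called gene of the 3 lists was Srsf2, and after DMBA/TPA there was none.

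Over the 10 comparisons 37 of the 80 members passed at least once, Celf3 among them through the level filter, and 43 passed in none. Among all 20949 genes tested, 54.5% passed at least once, a share above that of the members. Among the 43 were Hnrnpu, Hnrnpl, Hnrnph1, Hnrnpa2b1, Celf1, Mbnl2, Khdrbs1, Rbm5, Rbm39, Rbmx and Tra2a. Overlapping gene models limit some values: exons of 11 members overlap another gene on the same strand and exons of 29 a gene on the opposite strand by at least 50 bases. Rbm42 is the clearest case, with 1650 of its 2188 exonic bases shared with Gm21982 and levels of 4 to 19 steps in the knockout experiment's skin.

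**Figure D5:**
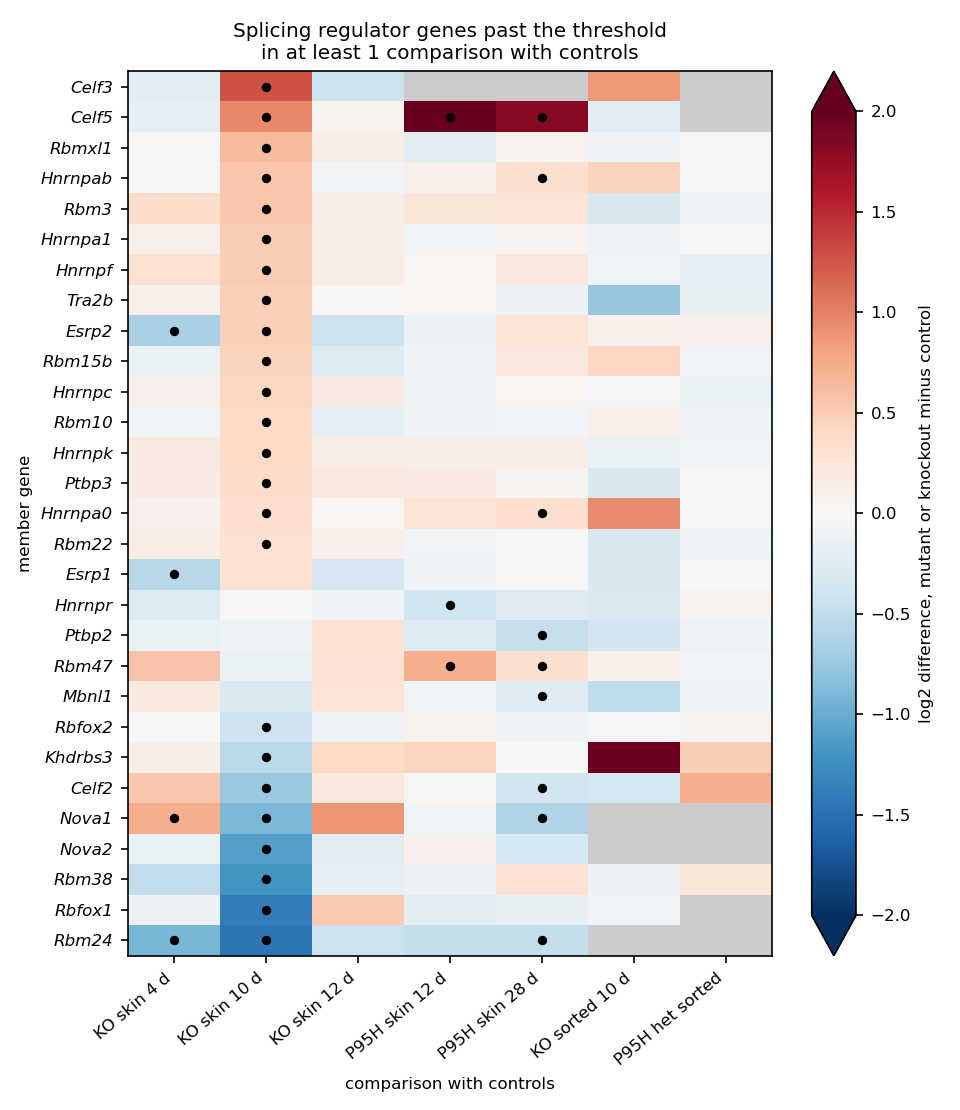
Log2 difference (colour, mutant or knockout minus control, capped at 2 either way) for the 29 member genes called in at least 1 of 7 comparisons with controls; black dots mark limma adjusted p below 0.05 and grey cells mark genes under the level filter. The 10-day knockout column holds 24 dots, with general hnRNPs positive and Nova, Rbfox and Rbm24 negative on the scale analysed, whereas equal totals lower that whole column; Celf5 stands out in both P95H skin columns.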

How the data were processed

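RNA was extracted with Trizol and made into stranded total RNA libraries, with TruSeq Stranded Total RNA Gold for the knockout experiment and the Ribo-Zero Plus kit for the P95H experiment, per the labels' protocols. The submitters' processing notes name STAR, featureCounts and DESeq2; for their versions, genome build and counting strand, nothing is stated in the sources used. The authors deposited a signal per gene, normalised counts scaled between libraries, in 4 tables covering 38 samples and 49585 genes each.

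All values were whole multiples of 1 unit per library (100% of values, tolerance 0.001). In sorted cells this unit was taken as 1 read, and the recovered reads were used for edgeR and DESeq2 as alternatives. In whole skin, values were expressed in steps, and because steps were already scaled between libraries they are not raw reads; totals were 28.5 to 37.5 M steps (M for 1e6) in the knockout experiment and 16.1 to 17.4 M in the P95H experiment. Whole-skin depth was estimated from the detected steps and the size of a step.

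Groups were compared with limma (trend, two-sided) on log2(value + 1), with 1 fit per table over all its groups, genes with a mean of at least 10, and Benjamini-Hochberg adjustment over all genes tested at 0.05. Fold changes are on that scale and understate those of low genes. In a comparison, all called members of a direction were eligible to be named up to 12, and otherwise the 8 with the largest difference, besides a list always given; any member could be named with its level. The members and lists were chosen with earlier results of these data known. Alternatives were pseudocounts of 0.5 and 5, no filter or a mean of 50, equal totals, the deposited values in place of steps, only the 2 groups compared, a replicate block, and each library left out. The script was tested on simulated data. GENCODE M21 gene models (GRCm38) matched all 80 members and gave exon lengths. Fits ran in R 4.3.3 with limma 3.58.1, edgeR 4.0.16 and DESeq2 1.42.0. Tables were made with numpy 2.4.6 and pandas 2.3.3 under Python 3.11.15, and plots with matplotlib 3.10.9.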

Additional observations from a re-analysis of the deposited data

Results flagged for a closer look

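Outlying libraries were sought in 74 gene and group combinations of 37 members (groups of 4 or 5), of which chance marks about 1 in 20. In 12-day controls of the P95H experiment, replicate 5 lay far above the other 4 for Esrp2 (2980 steps, others 2248 to 2451), Hnrnpa1 (2351, others 1900 to 2016), Hnrnpab (2481, others 1949 to 2088), Khdrbs1 (1899, others 1660 to 1711) and Rbm3 (1646, others 1219 to 1321).

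In P95H skin at 28 days, replicate 1, the shallowest whole-skin library, lay far above the other 3 for Esrp2 (3831 steps, others 2370 to 2567). It lay far below them for Celf1 (1980, others 2563 to 2629), Hnrnpc (1474, others 1953 to 2015), Hnrnpk (5038, others 5677 to 5706), Khdrbs1 (1280, others 1872 to 1944), Rbm39 (3181, others 4359 to 4599), Rbmx (606, others 741 to 761) and Tra2b (1363, others 1906 to 1956). Why this library differed was not tested.

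Knockout skin differed between 4 and 10 days in 22 members by limma (13 higher and 9 lower at 10 days, 27.8%, against 40.3% of all genes). Between 10 and 12 days it differed in 26 (10 higher and 16 lower at 12 days, 32.9%, against 37.6%). All knockout times share the same controls, treated for 10 or 12 days. Length of treatment and effect of the knockout therefore cannot be told apart here. Both shares were under those of all genes, and Celf3 is among both counts through the level filter. With equal totals the splits were 6 higher and 15 lower, and 30 higher and 3 lower. Of all genes, 11.6% were then higher and 34.5% lower, and 39.6% higher and 9.47% lower. Esrp2 moved from -0.65 at 4 days to 0.48 at 10 days, a log2 difference of 1.12 (limma adjusted p = 3.04e-04). Nova1 moved from 0.73 to -0.90, a log2 difference of -1.63 (limma adjusted p = 2.29e-04).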

How the results depend on the processing

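Of the settings tried for single members, 5023 values kept direction and side of the threshold, 307 lost and 53 gained the call, and 7 reversed; where no value is given, the cause was not tested. With equal totals Rbm22 stood at -0.0134 at 10 days of knockout against control and Rbm8a at 0.0114 from 10 to 12 days. With the deposited values at 28 days of P95H, Celf2 stood at 0.25, Mbnl1 at 0.35, Ptbp2 at 0.15, Nova1 at 0.0058 and Rbm24 at 0.14, with the median of all genes at 0.59. Members called at 4 days of knockout numbered 2 with no filter, 0 with the deposited values and 1 with only the 2 groups. The shares of all genes were 5.51%, 3.87% and 3.93%. From 4 to 10 days 36 were called with the deposited values (45.6%, against 36.5% of all genes). For P95H at 12 days, 1 was called with the deposited values and 5 with only the 2 groups, against 1.14% and 5.84% of all genes. At 28 days 4 were called with no filter, 1 with the deposited values and 5 with only the 2 groups. The shares of all genes were 5.12%, 3.45% and 7.84%. In sorted knockout cells DESeq2 called 5. With 1 library left out, the counts ran from 0 to 5 at 4 days, 4 to 21 at 10 days, 0 to 0 at 12 days, 17 to 24 from 4 to 10 days, 16 to 22 from 10 to 12 days, 2 to 5 for P95H at 12 days, 1 to 11 at 28 days, 0 to 2 in sorted knockout cells and 0 to 0 after DMBA/TPA. The shares of all genes moved too in these fits. In knockout skin they ran from 1.52% to 13.3% at 4 days, 7.32% to 25% at 10 days and 0.221% to 0.74% at 12 days. From 4 to 10 days they ran from 29.4% to 37.3%, and from 10 to 12 days from 27.2% to 33.7%. In P95H skin at 28 days they ran from 3.82% to 13.3%. The edgeR fit without sorted knockout replicate 2 (1 called) and equal totals without Gm26917 (0 called, median of all genes -0.07) were chosen after seeing the data. Depth limits low members such as Celf3 and Celf5 most.

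The labels do not say that replicate numbers pair the samples. Same-numbered libraries' deviations correlated at -0.458 to 0.84 in knockout skin, -0.189 to 0.367 in P95H skin, 0.0578 to 0.19 in sorted knockout cells and 0.0564 to 0.15 after DMBA/TPA. For libraries of different number the ranges were -0.671 to 0.58, -0.466 to 0.346, -0.159 to -0.0053 and -0.141 to 0.0238. In both sorted tables every library correlated best with its own number, a hint from the data and not from the design. With a replicate block the members called numbered 4 at 4 days, 23 at 10 days, 0 at 12 days, 20 from 4 to 10 days, 26 from 10 to 12 days, 2 for P95H at 12 days, 10 at 28 days (7 higher, 3 lower), and 0 for the difference of P95H effects and in either sorted experiment. In the same order the shares of all genes in whole skin were 10.6%, 25.4%, 0.992%, 40.4%, 37.5%, 4.29%, 13.8% and 0.00546%.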
